A study of Homo sapiens with 4 samples.

Results

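PIAS4 and RILPL1 are 2 human genes whose RNA gave some of the highest folds of LARP4 binding in HEK293 cells. Their members are the intervals on the gene's strand that overlap a fixed window in the build hg19, chromosome 19, 4007700 to 4039400 on the plus strand for PIAS4 and chromosome 12, 123955900 to 124018300 on the minus strand for RILPL1, with positions counted from 1. The windows held 44 of the 7153 regions in the authors' series-wide list, 28 in PIAS4 and 16 in RILPL1. They also held 78 of the 171755 clusters of replicate 1 and 73 of the 191899 clusters of replicate 2. Both genes were chosen by the authors' log2 folds over input in these same 3 lists, so their levels are described below and not tested.

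Binding was measured by enhanced crosslinking and immunoprecipitation (eCLIP) in HEK293, an established line derived from human embryonic kidney. Ultraviolet light links a protein to the RNA it touches, an antibody recovers the protein with that RNA, and the fragments are sequenced. A size-matched input, taken through the same gel without the antibody, is the baseline. One group was LARP4 eCLIP, with 2 biological replicates, and the other was size-matched input, with 2 samples. All were unmodified HEK293 cells given 400 mJ/cm2 at 254 nm. The inputs enter only through the authors' folds, and the lists do not give the reads behind a fold. Only 1 cell line and 1 antibody against endogenous LARP4 were used.

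LARP4 is a La-related RNA-binding protein that contacts poly(A) and the poly(A)-binding protein and is known for protecting mRNA tails from shortening. PIAS4 is a SUMO E3 ligase: it helps to move the small modifier SUMO from its conjugating enzyme to target proteins, many of them in transcription and the response to DNA damage. RILPL1, a relative of the Rab7 effector RILP, binds phosphorylated Rab GTPases and acts in protein traffic at the centrosome and the primary cilium. The description of both genes as non-mitochondrial comes from these known functions and was not measured here.

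In PIAS4, LARP4 binding formed a dense block near the 3′ end of the gene window, while in RILPL1 it formed a block in the 5′ part, with no cluster at all towards the 3′ end. A fold here is eCLIP over input, given as log2, and a cluster or region is called enriched at a log2 fold of at least 3, or 8-fold, with a −log10 p of at least 3. PIAS4 regions ran from 26.9 to 30.3 kb from the 5′ edge of its 31.7 kb window, or from 84.7% to 95.7% of its length. RILPL1 regions ran from 19.8 to 24.0 kb of a 62.4 kb window, or from 31.7% to 38.5%. The blocks were of similar length, 3.48 kb in PIAS4 and 4.27 kb in RILPL1, and made up 11.0% and 6.85% of the windows. No annotation of hg19 was used here, so exons, introns and untranslated regions were not assigned.

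**Figure D1:**
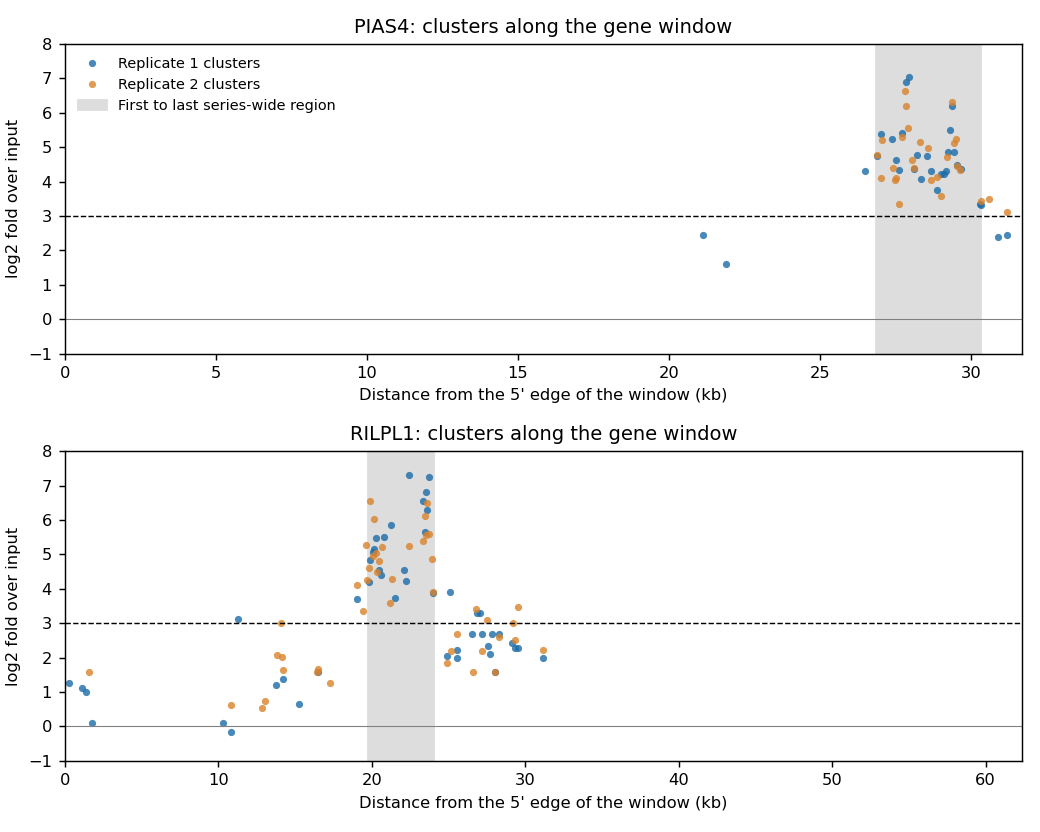
Log2 fold over input of each cluster (y axis) against its distance in kb from the 5′ edge of the gene window (x axis), with PIAS4 above and RILPL1 below, 1 point per cluster and 1 colour per replicate. Grey marks the stretch from the first to the last series-wide region and the dashed line a log2 fold of 3. PIAS4 points begin at 26.5 kb, apart from 2 of replicate 1 at 21.1 and 21.9 kb, and RILPL1 has no point in the last 31.2 kb.

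Nearly every PIAS4 cluster was enriched. In replicate 1, 26 of 30 clusters were enriched (86.7%, exact 95% interval 69.3 to 96.2), where 5.01% of all clusters of that replicate were. In replicate 2 it was 27 of 27 (100%, 87.2 to 100), where 5.50% of all clusters were. These intervals cover counting error only, and clusters of 1 gene share a transcript. Replicate 1 had a median log2 fold of 4.36 and replicate 2 one of 4.44, against 1.28 and 1.30 over all clusters. No PIAS4 cluster lay below input in either replicate. The 4 clusters of replicate 1 that were not enriched had log2 folds of 1.62 to 2.43, and all of them lay outside the block.

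RILPL1 had more clusters, and fewer of them were enriched. Of its 48 replicate 1 clusters 20 were enriched (41.7%, 27.6 to 56.8), and of its 46 replicate 2 clusters 25 were (54.3%, 39.0 to 69.1), against the same 5.01% and 5.50% overall. Median log2 folds were 2.91 and 3.38. Within the block all 19 replicate 1 clusters and all 18 replicate 2 clusters were enriched, with medians of 5.17 and 5.14. Upstream of the block, towards the 5′ end, medians were 1.16 over 12 clusters in replicate 1 and 1.66 over 15 in replicate 2. Downstream they were 2.34 over 17 clusters and 2.51 over 13.

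The block's edges are those of the outermost regions, which have high folds by construction, so higher folds inside it than outside are no finding. Of the values outside, the downstream median was above the upstream one in both replicates. The enriched clusters outside the block were 0 upstream and 1 downstream in replicate 1, and 4 upstream and 3 downstream in replicate 2. With 3 counts of the total taken as the limit of a count of 0, none of 12 clusters allows a share of up to 25%. This limit covers counting error only, and clusters of 1 gene share a transcript. The 4 upstream ones of replicate 2 lay 19.0 to 19.7 kb from the 5′ edge, next to the block, with log2 folds of up to 5.28. The lowest RILPL1 cluster of replicate 1 spanned 124007421 to 124007450 and had a log2 fold of −0.18, the 1 value below input in the gene. The lowest of replicate 2 was 0.52, at 124005437 to 124005466.

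The 3′ side of the RILPL1 window held no cluster. The last 31.2 kb, 49.9% of the window, had none in either replicate or in the series-wide list. None of 16 regions, 48 clusters of replicate 1 and 46 of replicate 2 had its midpoint in the last 20% of the window. By the same limit of 3 counts, which covers counting error only, these counts of 0 allow shares of up to 18.8%, 6.25% and 6.52%. In PIAS4 all 28 regions, 28 of 30 clusters in replicate 1 and all 27 in replicate 2 lay in that last part. Measured along the span of the clusters in place of the window, 28.6% of PIAS4 regions lay in the last 20%. The PIAS4 window was instead empty over its first 21.1 kb, and its clusters came within 0.49 kb of the 3′ edge. A list without a cluster at a place shows that none was called there, not that the RNA was unbound.

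Little else on the same strand lay close to either gene. The nearest plus-strand clusters outside the PIAS4 window were 240.2 kb away on the 5′ side and at least 220.6 kb away on the 3′ side. For RILPL1 the nearest minus-strand clusters were at least 87.3 kb away on the 5′ side and at least 34.7 kb on the 3′ side. Within the window, PIAS4 had no cluster on the opposite strand in any list, but minus-strand clusters began 2.75 kb past its 3′ edge in replicate 1 and 3.27 kb past it in replicate 2. RILPL1 had 1 opposite-strand cluster within its window, in replicate 2, from 123956202 to 123956258, whose log2 fold was 0.59 and whose −log10 p was 0.16. In RefSeq's GRCh38.p14 gene order RILPL1 overlaps SNRNP35, a gene for a protein of the minor spliceosome, while PIAS4 overlaps neither of its neighbours.

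The PIAS4 block rose to a pair of summits. The region at chromosome 19, 4035497 to 4035528, 27.8 kb from the 5′ edge, had log2 folds of 6.88 in replicate 1 and 6.64 in replicate 2. Its mean was 6.76 ± 0.17 (SD, n = 2), and the lower replicate was 99.6-fold above input. The next piece, 4035529 to 4035573, touches it and had 6.88 and 6.21 (6.54 ± 0.48), with the same replicate 1 cluster behind both. At 4035608 to 4035698 the values were 7.03 and 5.56 (6.30 ± 1.04). There replicate 1 reached the highest PIAS4 value, 130.8-fold, which was rank 7 of its whole list, while replicate 2 was 47.3-fold. The second summit lay 1353 bases further on, at 4037052 to 4037092, with 6.21 and 6.32 (6.27 ± 0.08). Both replicates thus placed their highest folds at these positions, and among these 4 regions they were closest to each other at the second summit. A ratio this high can rest on very few input reads. The lists do not give reads, so whether that holds at the summits of either gene was not tested. Ranks and differences between replicates there are to be read with that limit.

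Folds around the summits were lower. At 4035376 to 4035460, just before the first summit, the values were 5.42 and 5.31 (5.37 ± 0.08). Between the summits the piece at 4036630 to 4036763 had 4.21 and 3.59, and the mean of its touching pair was 3.92 ± 0.09. The first region, at 4034557 to 4034630, had 4.76 and 4.77 (4.76 ± 0.01). The last, at 4038000 to 4038033, had 3.31 and 3.42 (3.36 ± 0.08), the lowest of the 28, and stood 607 bases apart from the rest. The fold therefore did not climb steadily towards the 3′ end.

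**Figure D2:**
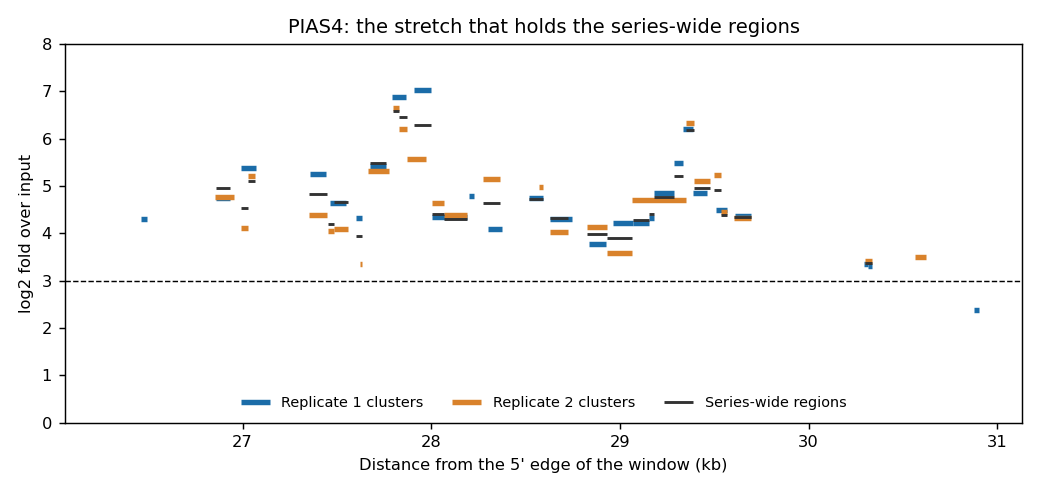
Log2 fold over input (y axis) of PIAS4 clusters and regions between 26 and 31.2 kb from the 5′ edge of the window (x axis), each drawn as a bar as long as the interval. Replicate 1 is blue, replicate 2 orange, the authors' series-wide regions black, and the dashed line is a log2 fold of 3. Summits stand near 27.8 and 29.4 kb in both replicates, at means of 6.76 and 6.27.

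The strongest p in PIAS4 did not sit at the highest fold. The longest run of touching regions, 4 pieces over 266 bases at 4036771 to 4037036, had a mean log2 fold of 4.72 in replicate 1 and 4.71 in replicate 2 (4.71 ± 0.01). Single pieces were less close: replicate 1 ran from 4.21 to 5.49, and the SD of a piece from 0.10 to 0.55. A single replicate 2 cluster, 4036764 to 4037051, covered all 4 pieces. It had a −log10 p of 400, the upper limit of the lists, and so did the replicate 1 cluster at 4036880 to 4036986, with a log2 fold of 4.85. At the first summit the −log10 p was 32.9 and 28.2. RILPL1 had no cluster at the limit, and its largest −log10 p values were 46.1 and 56.7.

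In the series-wide list the RILPL1 block was a set of separate patches, though some gaps held enriched clusters of 1 replicate alone. Ranked by whichever replicate was lower, its top 5 regions were the 5 pieces of 1 unbroken run of 476 bases at chromosome 12, 123994482 to 123994957, 23.3 kb from the 5′ edge. Over this run replicate 1 averaged a log2 fold of 6.51 and replicate 2 one of 5.82 (6.17 ± 0.49). Its piece at 123994613 to 123994729 had 6.29 and 6.48 (6.39 ± 0.14), 78.4-fold in the lower replicate. In that piece the replicates were close, while its neighbours differed more. At 123994482 to 123994612 replicate 1 had 7.24 and replicate 2 had 5.58 (6.41 ± 1.17). At 123994730 to 123994801 they had 6.83 and 5.56 (6.20 ± 0.89), and at 123994891 to 123994957 they had 6.56 and 5.38 (5.97 ± 0.83). At 123994802 to 123994890 the order turned, with 5.66 and 6.10 (5.88 ± 0.32).

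The replicates differed in which single RILPL1 region was highest. Replicate 1 had its highest value, 7.32 or 160.0-fold, at 123995761 to 123995942, rank 2 of its whole list. Replicate 2 had 5.26 there, from a shorter cluster, for a mean of 6.29 ± 1.46. Replicate 2 had its highest value, 6.56 or 94.1-fold, at 123998315 to 123998459, near the 5′ end of the block. Replicate 1 had 4.83 there (5.69 ± 1.22). The replicates thus had their single highest values at different places in this gene. Both also came close to those values in the run of 476 bases, with 7.24 in replicate 1 and 6.48 in replicate 2. Averaged over whole patches, that run was the highest of replicate 2, at 5.82.

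The outermost regions of the RILPL1 block differed less between replicates than the regions where either replicate had its highest value. So did some regions inside it, such as 123997770 to 123997899, with 4.54 and 4.82, and 123994613 to 123994729, with 6.29 and 6.48. A region picked for the highest value of 1 replicate tends to differ by that choice. The first region from the 5′ side, 123998460 to 123998530, had 4.20 and 4.61 (4.40 ± 0.29), although the region touching it had 4.83 and 6.56. The last, 123994257 to 123994324, had 3.89 and 3.92 (3.90 ± 0.02) and was separated from the strong run by 157 bases. Within those bases replicate 2 alone had an enriched cluster, with a log2 fold of 4.87. The widest gap between regions was 975 bases, against 607 in PIAS4, and the median gap was 120.5 bases against 39. Regions covered 37.3% of the RILPL1 block and 54.5% of the PIAS4 block.

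**Figure D3:**
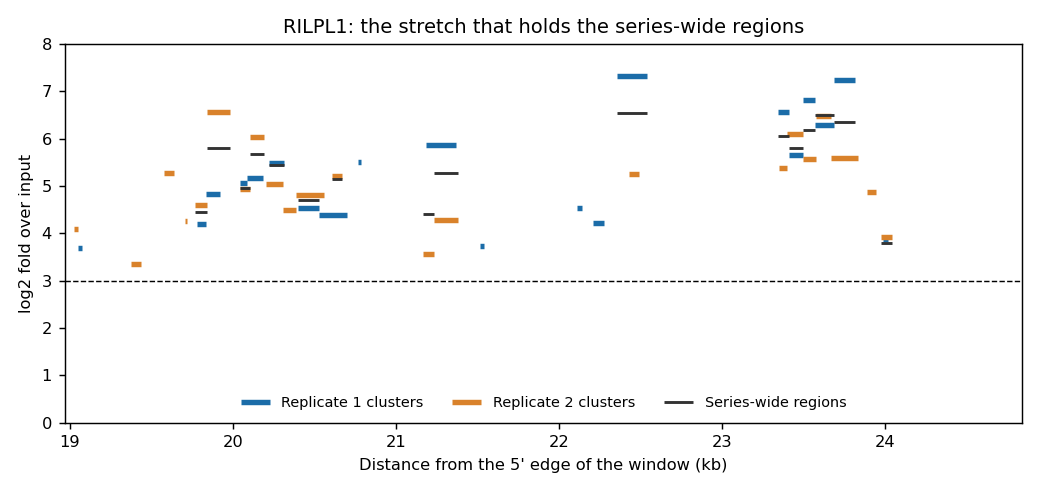
Log2 fold over input (y axis) of RILPL1 clusters and regions between 19 and 24.8 kb from the 5′ edge of the window (x axis), each drawn as a bar as long as the interval. Replicate 1 is blue, replicate 2 orange, the authors' series-wide regions black, and the dashed line is a log2 fold of 3. The replicate 1 bar at 7.32 stands above a replicate 2 bar at 5.26, and near 19.9 kb the order is the opposite, at 4.83 and 6.56.

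Averaged over its regions, each gene was close between replicates. Over its 28 regions PIAS4 had mean log2 folds of 4.89 in replicate 1 and 4.73 in replicate 2, or 4.81 ± 0.12 (SD, n = 2). For RILPL1 over 16 regions it was 5.57 and 5.21, or 5.39 ± 0.26. RILPL1 was above PIAS4 in both replicates. The medians over regions were 4.68 and 5.43, against 3.60 over all 7153 regions. At all 44 regions the overlapping cluster was enriched in both replicates, which held for 72.5% of all regions. Their lower replicate reached a log2 fold of 5 at 6 of 28 regions in PIAS4 and 8 of 16 in RILPL1, and at 220 of 7153 (3.08%) in the whole list. The genes were chosen by folds in these lists, so values above the whole list are no finding.

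Region by region, RILPL1 varied more between replicates than PIAS4. The replicates were within 1 log2 unit of each other at 25 of 28 PIAS4 regions (89.3%) and at 9 of 16 RILPL1 regions (56.3%), against 75.8% of all regions. Of the 7 RILPL1 regions beyond that distance, replicate 1 was higher at 6. The median SD of a region was 0.23 in PIAS4 and 0.60 in RILPL1. Some regions share a cluster, since the 28 PIAS4 regions drew on 23 clusters of replicate 1 and 25 of replicate 2, and the 16 RILPL1 regions on 15 and 16. Whether the genes differ in this spread was not tested.

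**Figure D4:**
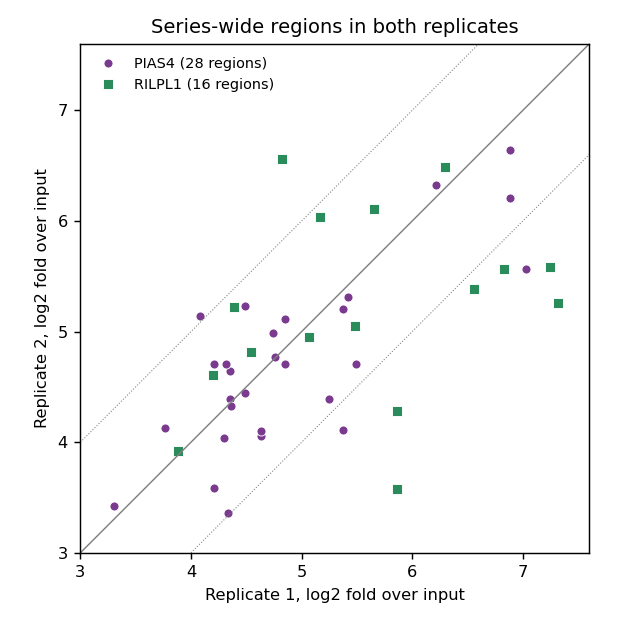
Log2 fold over input in replicate 2 (y axis) against replicate 1 (x axis) for the 28 PIAS4 regions (circles) and the 16 RILPL1 regions (squares). The solid line marks equal values and the dotted lines a difference of 1. Outside the dotted lines lie 3 circles and 7 squares.

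Most enriched clusters of replicate 1 recurred in replicate 2 at both genes. In replicate 1, 25 of 30 clusters in PIAS4 (83.3%) and 31 of 48 in RILPL1 (64.6%) overlapped a replicate 2 cluster by at least 1 base, against 44.8% of all. Among those that were enriched in replicate 1, 24 of 24 in PIAS4 and 15 of 16 in RILPL1 were also enriched in replicate 2. In the whole list this held for 5011 of 7515 (66.7%), and clusters enriched in both made up 6.51% of all overlapping ones. These counts leave out enriched replicate 1 clusters that overlapped no replicate 2 cluster, 2 in PIAS4, 4 in RILPL1 and 1098 in the whole list. Both genes were chosen by folds in these same lists, so recurrence above that of the whole list is no finding. The median absolute difference between overlapping clusters was 0.27 in PIAS4, 0.52 in RILPL1 and 0.58 over all. Among those enriched in both replicates it was 0.27 in PIAS4, 0.83 in RILPL1 and 0.42 over all, so RILPL1 was above the whole list there. Counted in bases, 1670 were enriched in both replicates in PIAS4, which is 88.5% of those in replicate 1 and 82.1% of those in replicate 2. In RILPL1 it was 1350 bases, 76.9% and 64.9%. The share in bases was not computed over the whole list, so these values have no baseline.

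Some enriched clusters lay outside the series-wide list, and most of them had no cluster in the other replicate. PIAS4 had 2 in each replicate. The replicate 1 cluster at 4034163 to 4034191, with a log2 fold of 4.31, and that at 4035902 to 4035926, with 4.79, had no partner. RILPL1 had 5 in replicate 1 and 8 in replicate 2, of which 4 and 6 had no partner. The highest were 5.51 at 123997512 to 123997534 in replicate 1 and 5.28 at 123998662 to 123998722 in replicate 2. Each gene therefore had enriched clusters that were called in 1 replicate alone. In replicate 1 these were 2 of 26 enriched clusters in PIAS4 and 4 of 20 in RILPL1, against 1098 of 8613 in the whole list. Enriched clusters outside the series-wide list were not counted over all genes, so whether their number here is usual was not tested.

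Regions of both genes were somewhat wider than usual and often touched. Median width was 74.5 bases in PIAS4 and 87 in RILPL1, against 64 over the list. Of the PIAS4 regions 18 of 28 (64.3%) touched another, and of the RILPL1 regions 11 of 16 (68.8%), against 48.1% of all. Merged, they gave 18 stretches in PIAS4 and 9 in RILPL1. These values were not used in choosing the genes, but regions of 1 gene are not independent and no test was made.

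Set among other strongly bound loci, the genes stood in different places. Here clusters of either replicate that follow each other on a strand within 5 kb make up a locus, and 136 loci held at least 10 regions. The locus within PIAS4 (4028838 to 4038910) was rank 5 in number of regions and rank 13 in mean log2 fold, with 93.0% of its 57 clusters enriched. The locus within RILPL1 (123987068 to 124007966) was rank 2 in mean log2 fold with 50.6% of its 89 clusters enriched. Medians over the 136 loci were 3.92 for the mean log2 fold and 69.2% for the enriched share. In the 44 other loci with an enriched share no higher than that of RILPL1, the mean log2 fold ran from 3.29 to 4.56, below the 5.39 of RILPL1. RILPL1 thus combined a high mean over its regions, a value that the choice of genes used, with many clusters that were not enriched.

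**Figure D5:**
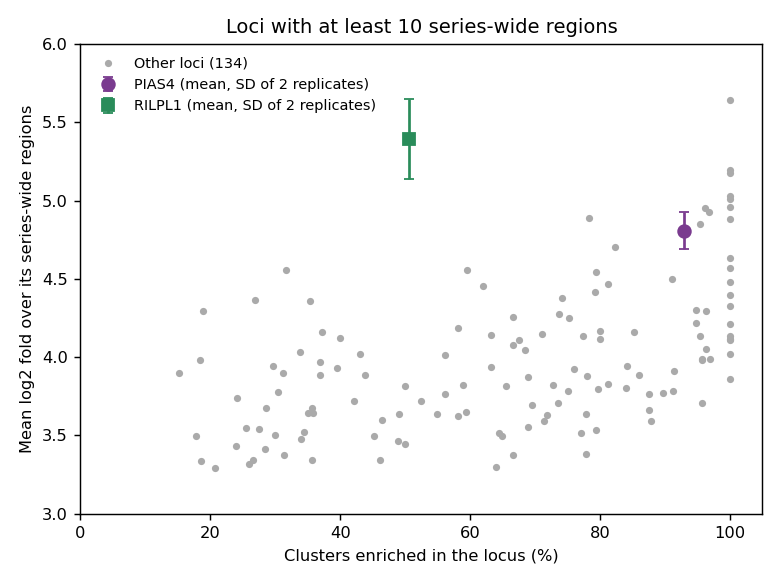
Mean log2 fold over the series-wide regions of a locus (y axis) against the percent of its clusters that were enriched (x axis), for 136 loci with at least 10 regions. Error bars are the SD of 2 replicates for PIAS4 and RILPL1, and grey points are the 134 others. RILPL1 stands at 50.6% and 5.39, above all grey points to its left, and PIAS4 at 93.0% and 4.81 among them.

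The loci most like each gene were found by the distance in 3 measures scaled to unit SD, the mean log2 fold over regions, the enriched share and the share of regions in the last 20% of the locus. They are given by position because no hg19 annotation was used. A locus is the span of its clusters and not the gene window, and by that measure PIAS4 had 28.6% of its regions in the last 20%. Likeness here thus says nothing of a shared place within the gene. For PIAS4 the most similar were short loci in which every cluster was enriched. The nearest was on chromosome 20, 60962186 to 60963522 on the plus strand, with 16 regions at 4.88 ± 0.10 (SD, n = 2) and a distance of 0.32. Next were chromosome 5, 140025085 to 140027191 on the minus strand, at 4.63 ± 0.05 (distance 0.46), and chromosome 22, 24236588 to 24237375 on the plus strand, at 4.96 ± 0.39 (distance 0.49).

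RILPL1 had no locus as near. Its closest was chromosome 22, 48971280 to 49049903 on the plus strand, with 20 regions at 4.56 ± 0.29 and 31.7% of clusters enriched, at a distance of 1.88. Chromosome 5, 149823829 to 149829301 on the minus strand, followed at 1.96, and chromosome 11, 57505433 to 57512205 on the plus strand, at 1.99. The distance between PIAS4 and RILPL1 themselves was 2.18. The mean log2 fold enters these distances and was also used in choosing the genes, so the distance of RILPL1 from other loci partly restates that choice.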

How the data were processed

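Reads were handled by the eCLIP pipeline of the Yeo laboratory, per the labels' protocols, with UMI-tools 1.0.0, cutadapt 1.14, STAR 2.7.6a, SAMtools 1.6 and build hg19 per the submitters' processing notes. The sources used here do not give how peaks were called, how depth was scaled or which input served which replicate. Deposited by the authors were 1 interval list per LARP4 eCLIP replicate and 1 for the series, each with a −log10 p (upper limit 400) and a log2 fold over input. Without a header, both meanings were inferred from the values and file names.

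Intervals overlapping the gene windows on the gene's strand were taken. A region's replicate value is the cluster with the longest overlap (at least 1 base). Intervals for shares are exact Clopper-Pearson, and a count of 0 is given the limit of 3 counts of the total. No test was made: members and lists were chosen with earlier results of these data known, and 2 replicates face no measured control list. The regions named are the 5 that rank highest by the lower replicate, the first, the last and the longest touching run, with extreme clusters. Other features singled out were chosen after their values were seen. Overlap functions were tested on simulated data. The tools were SciPy 1.17.1, numpy 2.4.6, matplotlib 3.10.9 and pandas 2.3.3 under Python 3.11.15.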

Additional observations from a re-analysis of the deposited data

How the results depend on the processing

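Of 50 alternatives to 16 values, 41 kept the value within its error (a count within 1.5 times) and 9 moved it. Some of the 41 could not have moved. Leaving out 1 replicate always shifts the mean over regions by less than the SD of both replicates. RILPL1 had no cluster in the last 20% of its window, so its share there stayed at 0 with the enriched clusters of either replicate. With touching regions merged, the counts fell from 28 to 18 in PIAS4 and from 16 to 9 in RILPL1. With the threshold lowered to a log2 fold of 1, the enriched share of PIAS4 was 96.7% in replicate 1, and with it raised to 4 the share was 81.5% in replicate 2. Measured along the span of the clusters in place of the window, 28.6% of PIAS4 regions lay in the last 20%, against 100% of the window. With that higher threshold 100% of the overlapping enriched RILPL1 clusters of replicate 1 were enriched in replicate 2, against 93.8%. With 1 replicate left out, the highest region was 6.64 to 7.03 in PIAS4 and 6.56 to 7.32 in RILPL1, and the mean over regions was 4.73 to 4.89 and 5.21 to 5.57. The cause of these moves was not tested. No paired analysis was possible because the inputs have no list of their own. Read depth is unknown, so no fold has an interval of its own.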

Other observations

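Log2 folds take repeated values in the lists, as ratios of small read numbers would. Reads were not inferred from them, and the bearing on the highest folds was not tested. Of the 48 RILPL1 clusters of replicate 1, 16 shared their log2 fold to 6 decimals with another of them, and 4 had exactly 2.70. In replicate 2 it was 8 of 46. PIAS4 clusters shared a value in 2 of 30 and in 0 of 27 cases. Over the whole lists 97.7% and 98.0% of clusters had a value that occurred more than once, with 6312 and 6170 distinct values.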
